A study of Mus musculus with 23 samples.

Results

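The Hox genes of the mouse were followed as a family through 23 lung RNA-seq libraries. Members were all rows of the expression tables whose symbol is Hoxa, Hoxb, Hoxc or Hoxd followed by a number. This gave 39 genes of 24411: 11 Hoxa genes on chromosome 6, 10 Hoxb genes on chromosome 11, 9 Hoxc genes on chromosome 15 and 9 Hoxd genes on chromosome 2. Lungs of Rarres1-KO mice (KO) and wild-type mice (WT), all C57BL/6, untreated and kept in pathogen-free barrier housing, came either from fetuses at E19.5 (embryonic day 19.5) or from adults aged 10 or 18 months. There were 3 KO and 3 WT lungs at E19.5 and 3 KO and 3 WT lungs at 10 months. At 18 months there were 3 KO lung tumours, 5 KO non-tumour lungs and 3 WT lungs. The animals of 10 and 18 months were male, and no sex is given for the embryos. Tumours 1, 3 and 6 carry the animal codes of KO lungs 1, 3 and 6, while KO lungs 2 and 7 have no tumour library here. The labels say neither how the knockout was made nor whether animals of a group were littermates, so p-values measure the spread between these libraries.

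Hox genes encode homeodomain transcription factors and lie in clusters, with low-numbered (anterior) genes at one end and high-numbered (posterior) genes at the other. In the embryo they are switched on in that order and give cells their position along the head-to-tail axis; genes with the same number in different clusters are paralogs. Retinoic acid is a known inducer of the anterior Hox genes, and Rarres1 was named as a gene that responds to a retinoid. In the lung Hox genes are expressed mainly in mesenchyme. Mice lacking Hoxa5 have malformed airways and often die at birth, and Hoxb5 takes part in airway branching.

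Promoters of 4 members are shown as examples of different behaviour: Hoxa5 had the highest level, Hoxa7 rose and Hoxb8 fell between E19.5 and 10 months, and Hoxa13 was close to 0. Each runs 5′ to 3′ from 250 bases before to 50 bases after an annotated start, taken from RefSeq on GRCm38.p6. For Hoxb8 this start lies inside the annotated gene span (chr11:96279401-96285325) and not at its beginning. CpG dinucleotides are in capitals. The windows lie at chr6:52204538-52204837 on the minus strand for Hoxa5, chr6:52218524-52218823 on the minus strand for Hoxa7, chr11:96281655-96281954 on the plus strand for Hoxb8 and chr6:52260831-52261130 on the minus strand for Hoxa13.
Hoxa5: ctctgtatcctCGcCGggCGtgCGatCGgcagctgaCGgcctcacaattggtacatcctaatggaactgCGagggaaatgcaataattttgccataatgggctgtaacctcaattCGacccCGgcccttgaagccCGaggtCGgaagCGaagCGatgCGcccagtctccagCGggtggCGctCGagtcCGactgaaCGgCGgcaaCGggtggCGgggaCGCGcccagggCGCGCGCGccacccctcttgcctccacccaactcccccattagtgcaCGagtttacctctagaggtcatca
Hoxa7: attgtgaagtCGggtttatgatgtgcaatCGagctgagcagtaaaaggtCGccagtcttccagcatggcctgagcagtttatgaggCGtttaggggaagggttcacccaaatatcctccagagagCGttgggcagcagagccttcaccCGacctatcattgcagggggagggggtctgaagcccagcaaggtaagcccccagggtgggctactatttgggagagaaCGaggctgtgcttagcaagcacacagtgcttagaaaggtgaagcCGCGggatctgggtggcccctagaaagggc
Hoxb8: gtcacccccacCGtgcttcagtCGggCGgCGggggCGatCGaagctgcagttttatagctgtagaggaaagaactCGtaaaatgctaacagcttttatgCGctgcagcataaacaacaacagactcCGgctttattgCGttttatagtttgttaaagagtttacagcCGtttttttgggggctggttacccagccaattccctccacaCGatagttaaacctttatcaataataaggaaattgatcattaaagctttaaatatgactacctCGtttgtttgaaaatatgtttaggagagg
Hoxa13: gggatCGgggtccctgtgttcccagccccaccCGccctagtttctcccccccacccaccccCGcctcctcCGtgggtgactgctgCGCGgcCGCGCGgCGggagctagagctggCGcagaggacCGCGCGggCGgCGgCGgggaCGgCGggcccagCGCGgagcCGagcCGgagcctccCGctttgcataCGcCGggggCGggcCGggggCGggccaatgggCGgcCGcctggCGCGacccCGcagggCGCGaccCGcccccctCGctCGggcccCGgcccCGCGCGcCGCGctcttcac
The Hoxa5 window holds 29 CpG, Hoxa7 9, Hoxb8 13 and Hoxa13 45. RefSeq promoters were found for 22 of the 39 genes (24 windows). Their median was 14.5 CpG, with a range of 4 to 45, against a median of 7 and a range of 0 to 67 over all 32851 promoters of the same length. CpG number did not separate the expressed members: the 6 windows of genes with a mean of at least 1 FPKM (fragments per kilobase of transcript, scaled to library size) had a median of 17 CpG, and the 10 windows of genes with at most 10 counts in all libraries had a median of 18. The half-site AGGTCA, which retinoid receptors among others can bind, was searched on both strands. It occurred in 7 of 24 Hox windows (29.2%; Hoxa5, Hoxb4, Hoxc4, Hoxd3, Hoxd4, Hoxd8 and Hoxd10) and in 16.3% of all promoters. The HOX-PBX motif TGATNNAT, on both strands, occurred in 4 Hox windows (16.7%; Hoxa2, Hoxb1, Hoxb8 and Hoxd11) and in 8.85% of all promoters. CCAAT occurred in 62.5% of Hox windows and 37.4% of all promoters. Such matches describe letters in these windows and nothing about binding.

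Libraries held 23661181 to 46566642 expected counts. Rarres1 had 0 or 1 count in each KO library, tumours included, and 24 to 64 counts in each WT library. One library stood apart before any comparison of Hox genes. In WT embryo 3 the 8 squamous and oesophageal markers summed to 558 FPKM, against 2.00 to 3.47 FPKM in the KO embryos and 1.87 and 3.55 FPKM in the other WT embryos. Its 8 skeletal muscle markers summed to 310 FPKM, against 44.2 to 129 FPKM in KO embryos and 42.2 and 75.2 FPKM in the other WT embryos. Of the 25 Hox genes with more than 10 counts in all, this library was the highest of the 6 embryos in 10, which include Hoxc4, Hoxc5, Hoxc6, Hoxd3, Hoxd4, Hoxd8, Hoxd9 and Hoxd10. In KO non-tumour lungs, lung 6 was the highest of all 23 libraries in 6 members (Hoxa4, Hoxa7, Hoxa9, Hoxb6, Hoxb7 and Hoxb9). Values without WT embryo 3 or KO lung 6 follow where a result rests on them.

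Hox RNA in the lung came almost entirely from the Hoxa and Hoxb clusters and from paralog groups 1 to 9. Over all libraries the Hoxa genes gave 46122 counts and the Hoxb genes (chr11:96194316-96368254, plus strand) 40050 counts. The Hoxd genes (chr2:74668225-74765142, plus strand) gave 1028 counts and the Hoxc genes (chr15:102921131-103036856, plus strand) 474 counts. Summed over both clusters, Hoxc and Hoxd reached 4.99 FPKM in WT embryo 3 and 0.29 to 1.92 FPKM in the other 22 libraries. The 12 genes of paralog groups 10 to 13, which pattern limbs, hindgut and the urogenital tract, held 78 of 87674 Hox counts (0.0890%). The highest level among them was 0.28 FPKM, for Hoxd10 in WT embryo 3. Hoxc10, Hoxc11, Hoxc12, Hoxd11 and Hoxd12 had no count in any library, which by counting error alone allows up to 3 counts in 649716534. Another 9 members had 1 to 10 counts in all. At the other end, 12 members had at least 10 counts in every library and the same number averaged at least 1 FPKM. After the filter on low counts, 19 members were tested in at least 1 comparison of 2 groups, 15 in all of them and 20 in none.

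**Figure D1:**
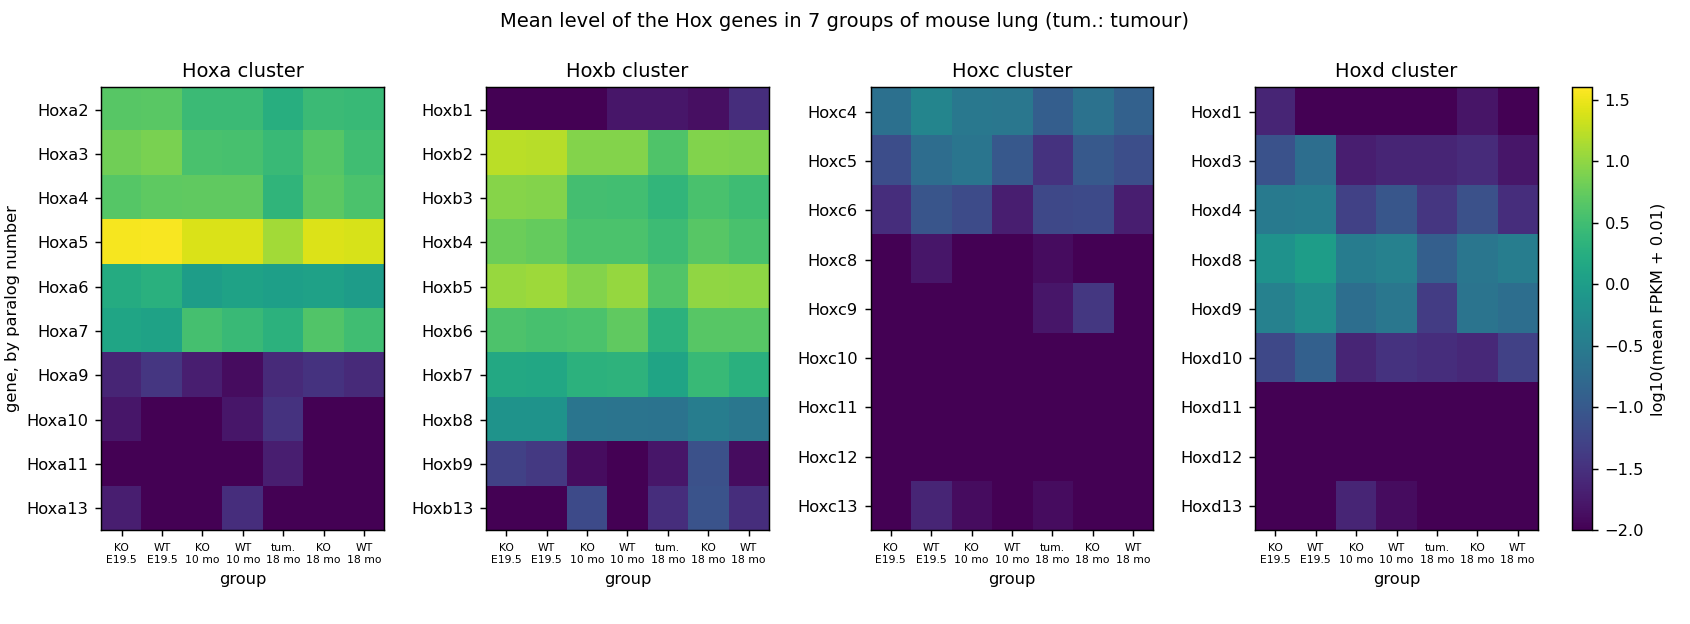
Mean FPKM of the Hox genes reported here (rows, by paralog number, 1 panel per cluster) in the 7 groups (columns), as log10(FPKM + 0.01) in colour. The bright cells lie in Hoxa2 to Hoxa7 and Hoxb2 to Hoxb7; the Hoxc panel, the Hoxd panel and paralog groups 10 to 13 are dark, and the tumour column is darker than its neighbours for Hoxa4, Hoxa5, Hoxb2 and Hoxb5.

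Per length, Hoxa5 (chr6:52201754-52204587, minus strand) was the leading member, with a mean of 26.2 FPKM over 23 libraries. It made up 28.8% to 36.2% of the summed Hox FPKM, a range that held the tumours too (30.7% to 33.1%). Next came Hoxb2, a regulator of hindbrain identity, at 9.92 FPKM and Hoxb5 (chr11:96303512-96306121, plus strand) at 9.53 FPKM. Hoxb3, Hoxa3, Hoxa4, Hoxb4 and Hoxb6 followed between 4.03 and 4.62 FPKM, a span smaller than the spread of any of them across libraries. Hoxa2 averaged 3.17, Hoxa7 2.70, Hoxb7 1.91 and Hoxa6 1.26 FPKM. The leading Hoxd gene was Hoxd8 (chr2:74704615-74707933, plus strand) at 0.417 FPKM, and the leading Hoxc gene was Hoxc4 (chr15:103018097-103036856, plus strand) at 0.227 FPKM. The annotated span of Hoxa3 contains Hoxa4, Hoxa5 and Hoxa6, that of Hoxb3 contains Hoxb4, that of Hoxd3 contains Hoxd4, and Hoxd10 overlaps Hoxd11. Antisense transcripts such as Hoxb5os and Hoxaas3 lie in the same clusters, and no strand setting is given, so reads of such neighbours may be shared among them.

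Before birth the 2 leading genes of paralog group 5 had these levels. Hoxa5 had 39.6, 38.1 and 28.1 FPKM in KO embryos, against 36.9, 40.8 and 30.7 FPKM in WT embryos. Hoxb5 had 12.2, 12.3 and 9.17 FPKM in KO embryos, against 13.1, 12.7 and 9.68 FPKM in WT embryos. The groups overlapped in both genes, and embryo 3 of each genotype was the lowest of its group. At 10 months Hoxa5 had 24.5, 23.1 and 27.1 FPKM in KO lungs, against 23.9, 26.4 and 25.2 FPKM in WT lungs. Hoxb5 had 9.26, 7.29 and 9.32 FPKM in KO lungs, against 10.1, 10.6 and 10.97 FPKM in WT lungs. Hoxa5 overlapped between genotypes, whereas each KO value of Hoxb5 lay below each WT value. At 18 months Hoxa5 had 8.14, 9.26 and 20.8 FPKM in tumours 1, 3 and 6, 19.1, 24.2, 24.3, 35.2 and 25.6 FPKM in KO lungs 1, 2, 3, 6 and 7, and 20.5, 24.8 and 26.1 FPKM in WT lungs. Hoxb5 had 1.91, 2.35 and 8.29 FPKM in the tumours, 7.09, 7.77, 10.1, 12.9 and 12.8 FPKM in the KO lungs, and 10.3, 9.19 and 9.89 FPKM in the WT lungs. Tumours 1 and 3 were the lowest libraries of both genes; tumour 6 lay among the KO lungs.

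**Figure D2:**
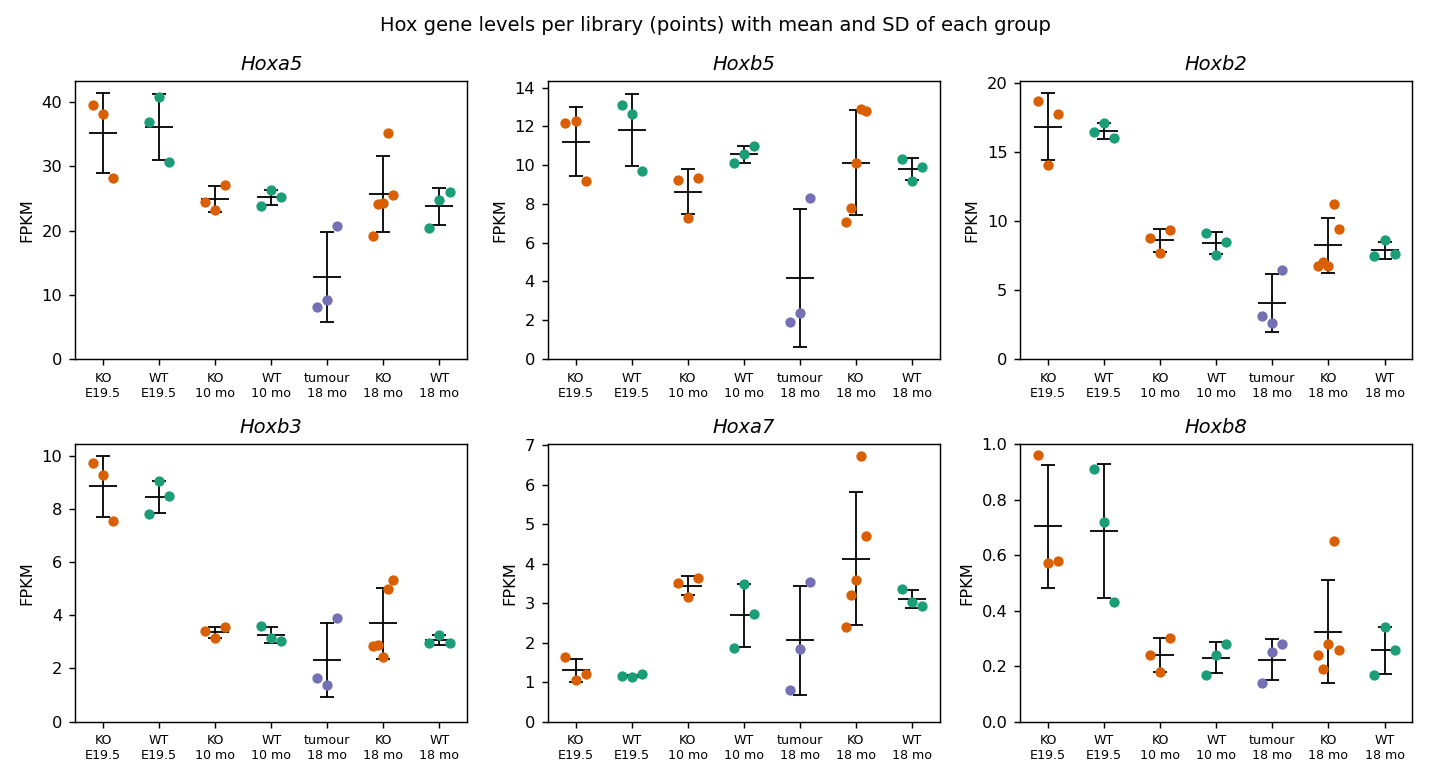
FPKM of 6 Hox genes in every library (points) with the mean and SD of each group (bars), in the 7 groups from E19.5 to 18 months. Hoxb2 and Hoxb3 stand highest in the embryos, every embryo lies below every lung of 10 months for Hoxa7, and tumours 1 and 3 lie at the bottom of Hoxa5 and Hoxb5.

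Between E19.5 and 10 months the family lost RNA on balance, but not every member moved the same way. Summed Hox FPKM averaged 73.5 ± 5.10 at 10 months and 106 ± 12.6 at E19.5 in KO lungs, and 75.7 ± 1.37 at 10 months and 109 ± 6.01 at E19.5 in WT lungs (SD, n = 3 each). In KO lungs, 2 of 19 tested members rose and 9 fell at 10 months against E19.5 (edgeR quasi-likelihood test, adjusted p under 0.05). Of all 15626 genes tested there, 31.1% rose and 29.4% fell, so a changed gene was common in this comparison. In WT lungs, 3 of 17 members rose and 10 fell, against 31.6% and 31.2% of 15619 genes. Without WT embryo 3, 1 rose and 8 fell. That fit has fewer libraries and its share over all genes is not given here, so the lower count is no result about Hox genes alone. The median log2 fold change of the tested members was -0.62 in KO and -0.67 in WT lungs, beside medians of 0.00 over all genes. Each comparison was fitted on its own libraries, and embryos and adults may also differ in sex. In bulk tissue, fewer cells of a type and less RNA per cell cannot be told apart. The 16 mesenchymal transcription factors on a fixed list, most of which the lung expresses in fibroblasts and smooth muscle, summed to 385 to 426 FPKM at 10 months and 777 to 897 FPKM at E19.5 in KO lungs, and to 356 to 434 FPKM at 10 months and 796 to 866 FPKM at E19.5 in WT lungs. All 16 were detected at E19.5 in at least 1 library, and at least 1 of Barx1 and Nkx3-2 was listed at 0 in each library of 10 months. The 10 fibroblast markers summed to 2890 to 3088 FPKM at 10 months and 1633 to 1849 FPKM at E19.5 in KO lungs. In WT lungs their sums overlapped between the ages, at 2259 to 2913 FPKM at 10 months and 1617 to 2304 FPKM at E19.5. Gene by gene, 2 of the 10 rose and 5 fell in KO lungs, with a median log2 fold change of -0.58. In WT lungs 4 rose and 5 fell, with a median of -0.31, so the sums do not stand for most of the markers. The 6 smooth muscle markers summed to 276.5 to 293 FPKM at 10 months and 312 to 348 FPKM at E19.5 in KO lungs. Their WT sums, 289 to 382 FPKM at 10 months and 306 to 608 FPKM at E19.5, again overlapped. Of the 6, 2 rose and 2 fell in KO lungs, with a median of 0.00. In WT lungs 0 rose and 0 fell, with a median of -0.15. All 16 of these markers were detected in every library of both ages. The embryonic lungs also held more skeletal muscle RNA. The 8 skeletal muscle markers summed to 2.78 to 15.6 FPKM at 10 months and 44.2 to 129 FPKM at E19.5 in KO lungs. In WT lungs they summed to 3.02 to 28.9 FPKM at 10 months and 42.2 to 310 FPKM at E19.5. Of those tested, 6 of 6 fell in KO and 5 of 7 in WT lungs, with medians of -5.29 and -6.48. The part of these genes and cell types in the Hox results was not tested.

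Most of the tested anterior genes fell. Hoxb3 and its paralog Hoxa3, which pattern the pharyngeal organs, were among the clearest. Hoxb3 had 3.42, 3.14 and 3.54 FPKM at 10 months and 9.71, 9.28 and 7.55 FPKM at E19.5 in KO lungs. In WT lungs it had 3.59, 3.13 and 3.05 FPKM at 10 months and 7.80, 9.03 and 8.49 FPKM at E19.5. Every adult value lay below every embryonic one in both genotypes. The log2 fold change of Hoxb3 was -1.33 ± 0.11 (SE, adjusted p 1.61e-05) in KO and -1.32 ± 0.10 (adjusted p 3.26e-06) in WT lungs. For Hoxb2 the libraries held 8.81, 7.69 and 9.34 FPKM at 10 months and 18.7, 14.1 and 17.7 FPKM at E19.5 in KO lungs. The WT values of Hoxb2 were 9.16, 7.57 and 8.49 FPKM at 10 months and 16.4, 17.1 and 16.02 FPKM at E19.5. Again no value overlapped, and the log2 fold change was -0.92 ± 0.13 (adjusted p 0.000379) in KO and -0.92 ± 0.09 (adjusted p 2.33e-05) in WT lungs.

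Hoxa3 fell by 0.78 ± 0.12 on the log2 scale in KO (adjusted p 0.000478) and by 1.04 ± 0.13 in WT lungs (adjusted p 7.79e-05). Hoxa2, which sets the identity of the second pharyngeal arch, had 2.52, 2.63 and 3.46 FPKM at 10 months and 5.20, 4.98 and 3.81 FPKM at E19.5 in KO lungs. Its WT values were 3.30, 2.67 and 2.43 FPKM at 10 months and 4.16, 5.26 and 5.00 FPKM at E19.5. The ages did not overlap in either genotype, and Hoxa2 fell by 0.65 ± 0.18 (adjusted p 0.0121) in KO and by 0.72 ± 0.16 (adjusted p 0.00348) in WT lungs. The KO call is lost without KO lung 1 of 10 months (adjusted p 0.0515). Hoxb4, known from blood stem cells, fell by 0.62 ± 0.12 (adjusted p 0.00196) in KO and by 0.51 ± 0.11 (adjusted p 0.00216) in WT lungs. Hoxa5 fell less, by 0.45 ± 0.12 (adjusted p 0.0107) in KO and by 0.46 ± 0.10 (adjusted p 0.00289) in WT lungs. Its paralog Hoxb5 and the neighbouring Hoxa4 did not pass the test: Hoxb5 differed by -0.32 ± 0.14 (adjusted p 0.0688) in KO and by -0.10 ± 0.12 (adjusted p 0.470) in WT lungs. Hoxa4 differed by 0.32 (adjusted p 0.187) in KO and by 0.10 (adjusted p 0.546) in WT lungs.

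Paralog group 7 stood higher in the adult. Hoxa7 (chr6:52215623-52218573, minus strand), a trunk patterning gene, had 3.52, 3.17 and 3.63 FPKM at 10 months and 1.63, 1.06 and 1.22 FPKM at E19.5 in KO lungs. In WT lungs the values were 1.88, 3.48 and 2.74 FPKM at 10 months and 1.15, 1.14 and 1.20 FPKM at E19.5. All adult values lay above all embryonic ones, and Hoxa7 rose by 1.45 ± 0.19 on the log2 scale (adjusted p 0.00027) in KO and by 1.27 ± 0.25 (adjusted p 0.00149) in WT lungs. Hoxb7 had 2.05, 1.85 and 2.26 FPKM at 10 months and 1.57, 1.58 and 1.28 FPKM at E19.5 in KO lungs, and 1.91, 2.24 and 2.25 FPKM at 10 months and 1.73, 1.28 and 1.27 FPKM at E19.5 in WT lungs. The ages did not overlap, yet the calls differed: 0.53 with an adjusted p of 0.0583 in KO, and 0.63 ± 0.24 with an adjusted p of 0.0412 in WT lungs. The sum over paralog group 7 was 5.49 ± 0.44 FPKM at 10 months and 2.78 ± 0.37 FPKM at E19.5 in KO lungs, and 4.83 ± 0.97 FPKM at 10 months and 2.59 ± 0.25 FPKM at E19.5 in WT lungs (SD, n = 3 each). Hoxb6, the neighbour of Hoxb7, had 3.77, 3.75 and 3.85 FPKM at 10 months and 4.07, 3.92 and 3.95 FPKM at E19.5 in KO lungs, a log2 difference of -0.02 with an adjusted p of 0.910. In WT lungs Hoxb6 had 4.33, 5.89 and 5.34 FPKM at 10 months and 4.52, 2.94 and 3.28 FPKM at E19.5, and rose by 0.59 ± 0.21 (adjusted p 0.0339). The WT ages overlapped for Hoxb6, and both WT calls are lost without WT embryo 2 (adjusted p 0.1002 for Hoxb6 and 0.112 for Hoxb7), without WT embryo 3 (0.0742 and 0.0916), without WT lung 2 of 10 months (0.117 and 0.116) and without WT lung 3 of 10 months (0.0858 and 0.106). The Hoxb7 call is also lost without WT lung 1 of 10 months (adjusted p 0.0549) and with DESeq2 (0.0871).

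Both tested members of paralog group 8, Hoxb8 and Hoxd8, fell. Hoxb8 (chr11:96279401-96285325, plus strand), a trunk gene also known from myeloid progenitors, had 0.24, 0.18 and 0.30 FPKM at 10 months and 0.96, 0.57 and 0.58 FPKM at E19.5 in KO lungs. The WT libraries had 0.17, 0.24 and 0.28 FPKM at 10 months and 0.91, 0.72 and 0.43 FPKM at E19.5. No adult value reached an embryonic one in either genotype. Hoxb8 fell by 1.47 ± 0.32 (adjusted p 0.00418) in KO and by 1.53 ± 0.36 (adjusted p 0.00482) in WT lungs. The level is low, resting on 52 counts at 10 months and 137 at E19.5 in the KO lungs and on 49 and 133 counts in the WT lungs.

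Among the Hoxd genes, Hoxd8 had 0.30, 0.46 and 0.17 FPKM at 10 months and 0.73, 0.60 and 0.67 FPKM at E19.5 in KO lungs, and fell by 1.06 ± 0.34 (adjusted p 0.0255). In WT lungs it had 0.26, 0.45 and 0.41 FPKM at 10 months and 0.48, 0.83 and 1.66 FPKM at E19.5, and fell by 1.33 ± 0.45 (adjusted p 0.0282). WT embryo 3 was the highest of all libraries here. Without it the WT fall was 0.72 with an adjusted p of 0.119, and the call is also lost without WT lung 1 or WT lung 3 of 10 months (adjusted p 0.0974 and 0.0779). In KO lungs the Hoxd8 call is lost without KO embryo 1, KO embryo 3, KO lung 1 or KO lung 3 of 10 months (adjusted p 0.0508 to 0.0884) and with DESeq2 (0.0516). Hoxd9, an axial and limb gene, had 0.16, 0.24 and 0.17 FPKM at 10 months and 0.35, 0.54 and 0.23 FPKM at E19.5 in KO lungs, a difference of -0.93 with an adjusted p of 0.0710. Its WT values were 0.34, 0.21 and 0.23 FPKM at 10 months and 0.45, 0.50 and 0.82 FPKM at E19.5, and it fell by 1.12 ± 0.36 (adjusted p 0.0234). That call is lost without WT embryo 3 (adjusted p 0.0878), WT lung 2 (0.0824) or WT lung 3 of 10 months (0.0809), and with DESeq2 (0.0557). Hoxd4 was tested in KO lungs alone, where it had 0.04, 0.08 and 0 FPKM at 10 months and 0.38, 0.23 and 0.24 FPKM at E19.5, and fell by 2.77 ± 0.65 (adjusted p 0.00568). That fall rests on 8 counts at 10 months and 54 at E19.5. The untested WT means went the same way, at 0.0833 ± 0.0208 FPKM at 10 months and 0.317 ± 0.214 FPKM at E19.5 (SD, n = 3 each). The Hoxc gene Hoxc5 had 0.16, 0.24 and 0.32 FPKM at 10 months and 0.07, 0.05 and 0.06 FPKM at E19.5 in KO lungs, and rose by 2.00 ± 0.43 (adjusted p 0.00385). In WT lungs it did not pass the filter on counts, with 0.03, 0.20 and 0.03 FPKM at 10 months and 0.13, 0.05 and 0.37 FPKM at E19.5.

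**Figure D3:**
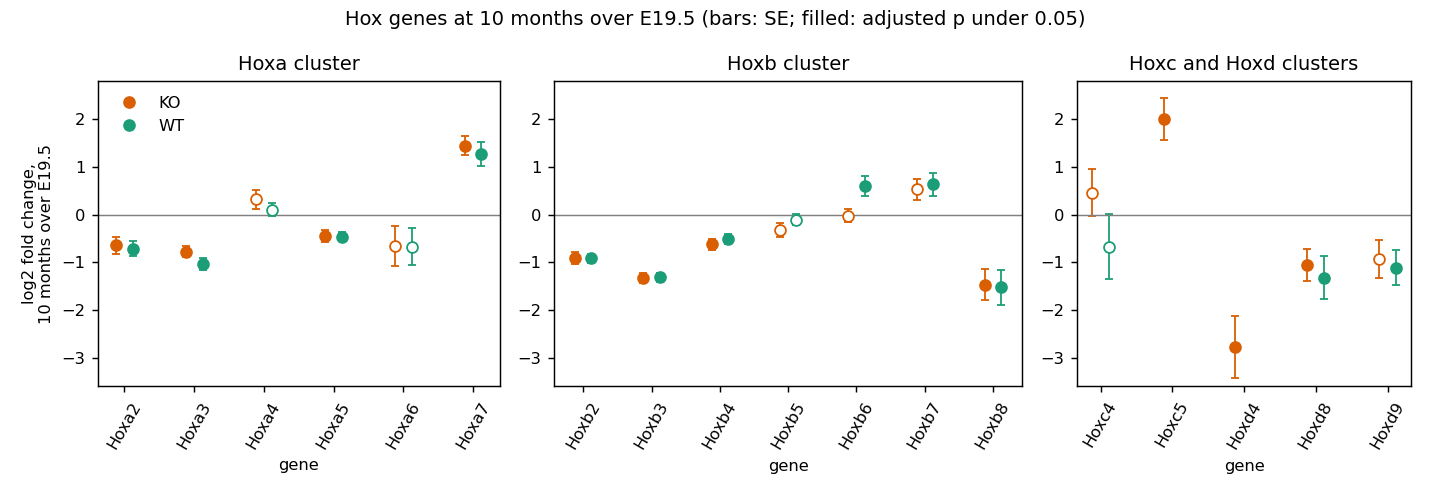
Log2 fold change of the tested Hox genes reported here at 10 months over E19.5, with SE, in KO and in WT lungs; filled points have an adjusted p under 0.05. Hoxa7 lies above 0 in both genotypes, at 1.45 in KO and 1.27 in WT lungs, while Hoxb3, Hoxb2, Hoxb8 and Hoxa3 lie below 0.

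Counting ranges in place of calls, 3 members in KO lungs (Hoxa7, Hoxb7 and Hoxc5) were higher in every adult than in every embryonic library and 11 were lower, against 31.8% and 36.3% of all genes. In WT lungs 2 members were higher (Hoxa7 and Hoxb7) and 10 lower, against 31.5% and 37.9% of all genes. The difference of the age effect between genotypes was tested as an interaction over the 12 libraries. No Hox gene of 19 passed, and 0.0625% of 15994 genes passed as higher and 0.0938% as lower. Hoxc5 had the lowest adjusted p of the members, at 0.565 for a difference of 2.98 ± 1.11; without WT embryo 3 the highest difference among the members was 1.98 and the lowest adjusted p 0.786. Hoxb6 differed by -0.61 ± 0.25 (adjusted p 0.602). The call of Hoxb6, Hoxb7 and Hoxd9 in WT lungs alone therefore does not show a genotype difference.

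The RNAs of proteins known to act with Hox factors or to set their expression were counted on fixed lists, beside the 31.1% of all genes that rose and 29.4% that fell at 10 months in KO lungs and the 31.6% and 31.2% in WT lungs. Of the 9 TALE homeodomain genes (Pbx, Meis and Pknox families, whose products bind DNA together with Hox proteins), 2 rose and 5 fell in KO lungs, and 1 rose and 6 fell in WT lungs. Pbx2 fell by 0.78 in KO and by 0.75 in WT lungs (adjusted p 3.07e-05 and 7.39e-06), and Pknox2 rose by 0.67 in KO and by 1.13 in WT lungs (adjusted p 0.00217 and 0.0016). Of 24 Polycomb and trithorax genes, whose products keep Hox clusters silent or active, 3 rose and 15 fell in KO lungs, and 4 rose and 14 fell in WT lungs. Cbx7, a Polycomb reader of repressive histone marks, rose by 2.75 ± 0.16 in KO (adjusted p 6.74e-06) and by 2.63 ± 0.09 in WT lungs (adjusted p 6.44e-08). Pcgf2, another Polycomb subunit, fell by 1.75 ± 0.11 in KO (adjusted p 5.73e-06) and fell by 1.76 ± 0.08 in WT lungs (adjusted p 1.9e-07). Of 12 tested retinoid and Cdx regulators, 4 rose and 4 fell in each genotype, a share near that of all genes. Aldh1a1, which makes retinoic acid, rose by 3.88 ± 0.12 in KO (adjusted p 2.71e-07) and by 4.02 ± 0.10 in WT lungs (adjusted p 2.64e-08), and Rdh10, which makes its precursor, rose by 0.67 in KO and by 0.71 in WT lungs (adjusted p 0.000344 and 0.000289).

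Of the 17 non-coding RNAs of the Hox clusters on the list, 3 could be tested in KO lungs and 4 in WT lungs. Hoxb5os, antisense to Hoxb5, fell in both: it averaged 1.24 ± 0.33 FPKM at 10 months and 4.44 ± 0.81 FPKM at E19.5 in KO lungs, and 1.22 ± 0.23 FPKM at 10 months and 5.45 ± 0.40 FPKM at E19.5 in WT lungs (SD, n = 3 each). Its log2 fold change was -1.77 ± 0.30 (adjusted p 0.000964) in KO and -2.07 ± 0.28 (adjusted p 0.00014) in WT lungs, beside the Hoxb5 differences of -0.32 and -0.10 given above. Of the 14 tested mesenchymal transcription factors, 1 rose and 11 fell in each genotype. Tcf21, a factor of lung fibroblasts, fell by 1.97 ± 0.14 in KO (adjusted p 8.68e-06) and by 1.87 ± 0.10 in WT lungs (adjusted p 6.53e-07). Gli2, a Hedgehog effector, fell by 1.69 ± 0.11 in KO (adjusted p 6.35e-06) and fell by 2.28 ± 0.10 in WT lungs (adjusted p 1.94e-07). The median log2 fold change of these factors was -1.05 in KO and -1.08 in WT lungs, further below 0 than the Hox medians of -0.62 and -0.67.

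Between 10 and 18 months no Hox gene passed the test, neither among 18 members in KO non-tumour lungs nor among 17 in WT lungs. The share of all genes that passed was 0% of 15455 and 0% of 15321 with edgeR. DESeq2 called 11 and 17 genes there, and 782 and 833 genes had an unadjusted p under 0.05. No Hox gene was among the genes DESeq2 called. The lowest unadjusted p among the members was that of Hoxa4 in WT lungs (0.0371, adjusted p 0.891), which had 2.79, 3.86 and 4.77 FPKM at 18 months and 5.60, 4.72 and 5.37 FPKM at 10 months; 1 of 3 values overlapped. In KO lungs no member was separated between the ages (2.59% of genes were higher and 1.13% lower in every library of 18 months). In WT lungs no member was lower in every library of 18 months than in every library of 10 months; 6.04% of genes were, and 4.11% were higher in every one.

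The genotype comparison gave no called Hox gene at any age. At E19.5, 0 of 18 tested members passed with edgeR, and 0% of 15307 genes did. DESeq2 called 2 genes there, none a Hox gene, while 144 genes and no Hox gene had an unadjusted p under 0.05. The median log2 fold change of the members was -0.04, with a range of -1.05 (Hoxc4) to 0.18. When 1 library was left out the median lay between -0.16 and 0.03, and without WT embryo 3 the lowest member stood at -0.56. Hoxc4 had 0.10, 0.22 and 0.29 FPKM in KO embryos, against 0.36, 0.24 and 0.68 FPKM in WT embryos, and the highest value was that of WT embryo 3. Hoxb4 was the only member higher in every KO than in every WT embryo (1.69% of genes were), at 5.97, 6.66 and 5.86 FPKM in KO against 5.71, 5.60 and 5.68 FPKM in WT embryos. No member was lower in every KO embryo (2.64% of genes).

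At 10 months, 0 of 18 members passed, against 0.574% of 15324 genes as higher and 0.946% as lower in KO lungs. The nearest were the neighbours Hoxb6 and Hoxb5. Hoxb6 had 3.77, 3.75 and 3.85 FPKM in KO lungs against 4.33, 5.89 and 5.34 FPKM in WT lungs, a log2 difference of -0.45 ± 0.15 (adjusted p 0.162). Hoxb5, with the values given above, differed by -0.30 ± 0.10 (adjusted p 0.189). Both genes were lower in every KO than in every WT lung, as were 11.6% of all genes. Of all genes, 12.5% were higher in every KO lung. For Hoxa5 the difference was -0.02 ± 0.07 (adjusted p 0.917). Hoxc5 had the largest difference, 1.46 ± 0.67 (adjusted p 0.310), at 0.16, 0.24 and 0.32 FPKM in KO lungs against 0.03, 0.20 and 0.03 FPKM in WT lungs, which overlapped. On the other lists Kdm6b, a histone demethylase, and Gli1 were called higher in KO lungs at 10 months (0.30 and 0.55 on the log2 scale, adjusted p 0.0357 and 0.0408), and each call was lost under 10 of 13 alternatives. No other TALE, Polycomb, retinoid, cluster RNA or mesenchymal gene on the lists was called at any age between KO non-tumour and WT lungs.

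At 18 months, 0 of 17 members passed between KO non-tumour and WT lungs, while 0.0453% of 15463 genes were called higher in KO lungs and 0.0323% lower. In all, edgeR called 12 genes there and DESeq2 154. Of the members, 13 lay above 0 and 4 below, with a median of 0.17 and a range of -0.60 (Hoxd8) to 0.82 (Hoxc4). Without KO lung 6, 8 members lay above 0 and 8 below, with a median of -0.01. The lowest adjusted p was 0.721, for Hoxa3, which had 2.99, 3.23, 3.26, 6.85 and 5.81 FPKM in KO lungs 1, 2, 3, 6 and 7 and 2.88, 3.25 and 3.27 FPKM in WT lungs. KO lungs 6 and 7 were high, and the other KO lungs lay within the WT range. The same pair was above every WT lung for Hoxb5, at 12.9 and 12.8 FPKM, and for Hoxb4, at 6.47 and 6.74 FPKM against 3.60 to 3.79 FPKM in WT lungs. No member was separated between the groups (4.4% of genes were higher and 2.65% lower in every KO lung).

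**Figure D4:**
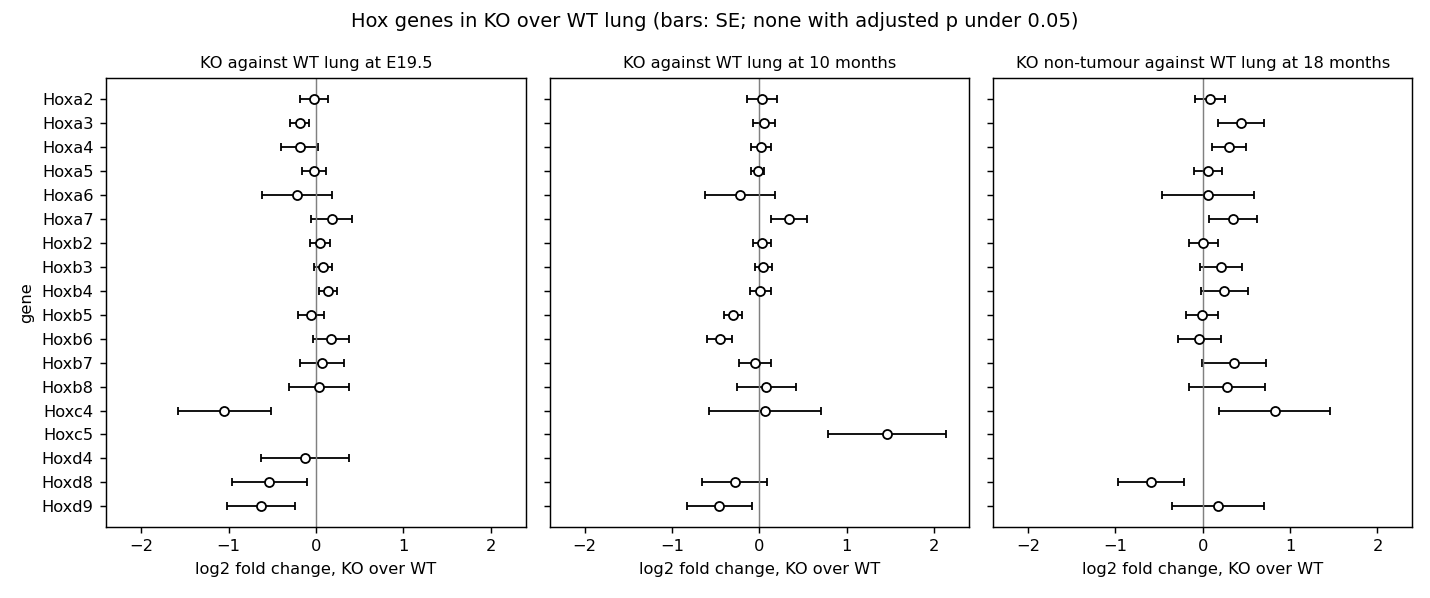
Log2 fold change of the tested Hox genes reported here in KO over WT lungs, with SE, at E19.5, 10 months and 18 months (non-tumour). No point has an adjusted p under 0.05; at 10 months Hoxb6 (-0.45) and Hoxb5 (-0.30) lie left of 0.

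Summed Hox RNA was lower in tumours 1 and 3 than in any lung of 18 months, but not in tumour 6, and 1 Hox gene passed the test. Summed Hox FPKM was 25.5, 28.0 and 67.7 in tumours 1, 3 and 6, against 59.6, 66.9, 68.2, 111 and 88.8 in KO lungs 1, 2, 3, 6 and 7 and 64.1, 72.0 and 73.6 in WT lungs. Against KO lungs, 1 of 17 tested members (Hoxa4) fell, a share near that of all genes: 7.2% of 15459 rose and 6.6% fell with edgeR. All 17 members had a negative log2 fold change, with a median of -0.94 beside -0.01 over all genes; without KO lung 6, 13 of 14 tested members did, with a median of -0.63, and none was called. Hoxa4 (chr6:52189682-52191703, minus strand) had 1.80, 1.32 and 3.60 FPKM in tumours 1, 3 and 6, against 4.36, 4.04, 4.57, 6.18 and 5.18 FPKM in KO lungs 1, 2, 3, 6 and 7. Every tumour lay below every KO lung, and Hoxa4 fell by 1.06 ± 0.29 (adjusted p 0.0434). With the animal as a block, which compares each tumour with the lung of its own animal, the difference was -1.20 with an adjusted p of 0.0898, no Hox gene was called and 146 genes were called in all. The range of the adjusted p over 17 alternatives was 0.00225 to 0.152. Hoxa4 stayed called without tumour 6 (adjusted p 0.00314), but not without tumour 1 (0.145), without tumour 3 (0.152) or without any 1 of the 5 KO lungs (0.0708 to 0.0823).

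Hoxb2, Hoxa5, Hoxd9, Hoxb6 and Hoxb5 came next and did not pass. Hoxb2 had 3.11, 2.58 and 6.46 FPKM in tumours 1, 3 and 6, against 6.78, 7.0, 6.78, 11.2 and 9.41 FPKM in the 5 KO lungs, a difference of -0.96 ± 0.29 (adjusted p 0.0583). No Hoxb2 value overlapped, though tumour 6 came close to the lowest lungs. Hoxa5 differed by -0.95 ± 0.29 (adjusted p 0.0587) and Hoxb5 by -1.22 ± 0.44 (adjusted p 0.0980), each with tumour 6 among the lungs. Hoxb6 differed by -1.10 ± 0.36 (adjusted p 0.0728). Hoxd9 had 0.02, 0.08 and 0 FPKM in the tumours, 5 counts in all, against 0.30, 0.16, 0.09, 0.22 and 0.38 FPKM and 59 counts in the KO lungs, a difference of -2.66 ± 0.81 (adjusted p 0.0599). Hoxa7, which was higher at 10 months than at E19.5, had 0.80, 1.84 and 3.54 FPKM in the tumours, against 2.41, 3.22, 3.60, 6.74 and 4.70 FPKM in the KO lungs (-0.94 ± 0.45, adjusted p 0.202). The call count depended on the libraries and the tool. Without tumour 6 it was 10, against 14.3% of 15670 genes called lower. It was 0 without tumour 1, 1 without tumour 3 (Hoxd9) and 0 without each KO lung in turn, while DESeq2 called 6 members (Hoxa4, Hoxa5, Hoxb2, Hoxb5, Hoxb6 and Hoxd9), all lower, as it did 11.3% of genes.

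Within animals, 15 of 17 members were lower in the tumour than in the lung of the same animal in all 3 animals, as were 29.6% of all genes. Hoxa6 was not among them, with a ratio of 1.2 in animal 3. No member was higher in all 3, as were 17.1% of genes. For Hoxa5 the tumour held 0.425, 0.381 and 0.590 of the lung level in animals 1, 3 and 6. The ratios of Hoxb5 were 0.269, 0.233 and 0.643, and those of Hoxa4 were 0.413, 0.289 and 0.583. Across the 17 members the median ratio was 0.425 in animal 1, 0.522 in animal 3 and 0.583 in animal 6. The ratios of animal 6 rest on KO lung 6, the highest of the KO lungs in 11 of the 17 members. Its summed Hox FPKM was 111, against 67.7 in tumour 6. KO lungs 1, 2 and 3 had sums of 59.6, 66.9 and 68.2 FPKM, so tumour 6 was not low beside those lungs. Without respect to animals, 4 members (Hoxa4, Hoxb2, Hoxb7 and Hoxd9) were lower in every tumour than in every KO lung, as were 13.6% of genes, and none was higher (8.07% of genes).

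**Figure D5:**
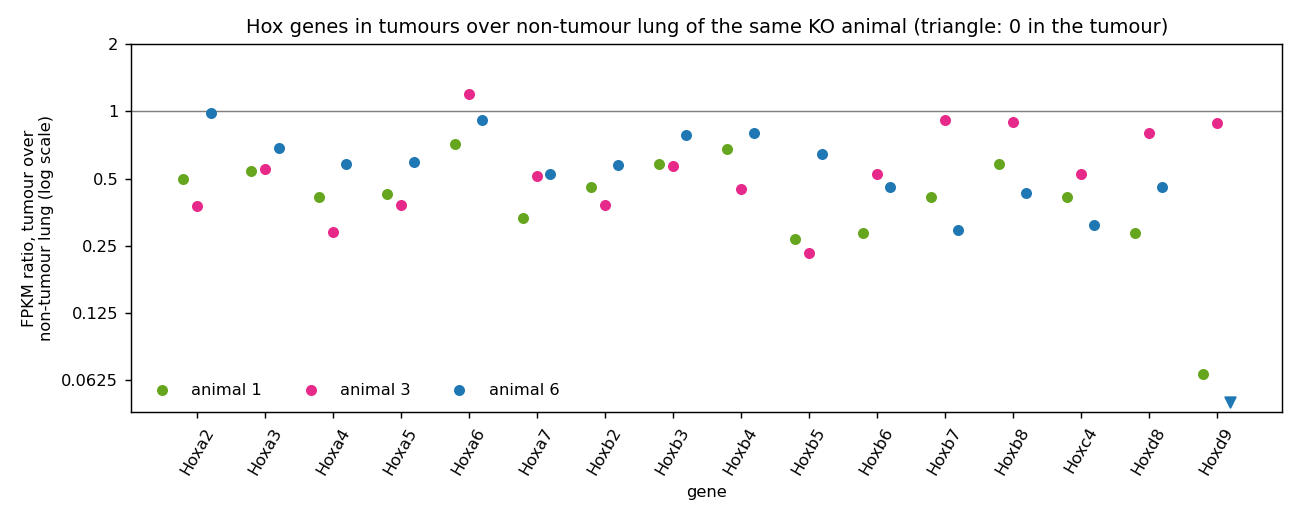
Ratio of FPKM in the tumour over FPKM in the non-tumour lung of the same KO animal (log axis) for the tested Hox genes reported here, with 1 point for each of animals 1, 3 and 6; the triangle marks Hoxd9 in animal 6, which was 0 in the tumour. All points but 1 of Hoxa6 lie below 1, and Hoxb5 lies at 0.269, 0.233 and 0.643 in animals 1, 3 and 6.

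Sums over lists of cell type markers also differed between tumours and KO lungs, on some lists more clearly than on others. The 8 alveolar type 2 markers, all detected, summed to 74492, 93560 and 46768 FPKM in tumours 1, 3 and 6, against 20931 to 36038 FPKM in KO lungs. The 10 fibroblast markers, all detected, summed to 917, 886 and 1561 FPKM in the tumours, against 2447 to 2914 FPKM in KO lungs. The 16 mesenchymal transcription factors, with Barx1 and Nkx3-2 listed at 0 in every tumour, summed to 121, 139 and 357 FPKM in the tumours, against 314 to 466.2 FPKM in KO lungs. The 6 smooth muscle markers, all detected, summed to 90.0, 85.5 and 192 FPKM in the tumours, against 226 to 384 FPKM in KO lungs. The 7 endothelial markers, all detected, summed to 376, 377 and 1144 FPKM in the tumours, against 990 to 1435 FPKM in KO lungs. Tumour 6, the tumour with the highest level in 14 of the 17 Hox genes, had the highest sum on each of the 4 stromal lists and the lowest on the alveolar list. Gene by gene, 7 of the 8 alveolar type 2 markers were called higher, as were 7.2% of all genes. Called lower were 2 of 10 fibroblast, 1 of 13 tested mesenchymal, 4 of 6 smooth muscle and 1 of 7 endothelial genes, against 6.6% of all genes. Median log2 fold changes were 1.14 for the alveolar, -0.51 fibroblast, -0.64 mesenchymal, -1.22 smooth muscle and -0.83 endothelial list. The sums thus do not stand for every marker. The part of these cell types in the Hox results was not tested.

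Against WT lungs, a comparison that shares the tumours with the one above, 1 of 15 tested members (Hoxd8) fell, and 7.87% of 15346 genes rose and 7.5% fell. Hoxd8 had 0.06, 0.12 and 0.16 FPKM in the tumours, against 0.31, 0.32 and 0.36 FPKM in WT lungs, and rested on 16 and 52 counts. No value overlapped, and Hoxd8 fell by 1.596 ± 0.42 (adjusted p 0.0476). Its call was kept without tumour 6 (adjusted p 0.0274) but was lost without each other library of the comparison in turn (adjusted p 0.0714 to 0.172) and without the filter on low counts (0.068). Hoxb6 differed by -1.13 ± 0.33 (adjusted p 0.0651), Hoxb2 by -0.94 ± 0.31 (adjusted p 0.0890), Hoxa5 by -0.88 ± 0.33 (adjusted p 0.114) and Hoxb5 by -1.23 ± 0.51 (adjusted p 0.151). In all, 14 of 15 members lay below 0, and 4 (Hoxb2, Hoxb5, Hoxb6 and Hoxd8) were lower in every tumour than in every WT lung, as were 23.4% of genes. None was higher in every tumour (18.4% of genes). Without tumour 6, 10 members were called lower, against 19.6% of 15504 genes. In the WT lungs the fibroblast markers summed to 2459 to 2718 FPKM, the mesenchymal factors to 331 to 403 FPKM and the alveolar type 2 markers to 24278 to 25200 FPKM, and their part was again not tested.

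Among the RNAs around the Hox genes, Hotairm1, a non-coding RNA of the Hoxa cluster, was low in the tumours against both kinds of lung. It averaged 8.08 ± 3.87 FPKM in tumours (n = 3), against 22.6 ± 6.58 FPKM in KO lungs (SD, n = 5) and 22.3 ± 1.47 FPKM in WT lungs (SD, n = 3). Its log2 fold change was -1.47 ± 0.36 against KO lungs (adjusted p 0.0284) and -1.72 ± 0.26 against WT lungs (adjusted p 0.0139). With the animal as a block the first of these had an adjusted p of 0.107, the highest over its 17 alternatives, 7 of which lost the call. Among the TALE genes Pbx4 was called lower against KO lungs (-1.57, adjusted p 0.0369; 0.200 with the block), and against WT lungs Meis3 was called higher (0.74, adjusted p 0.0235). No Polycomb or trithorax gene of 24 was called against KO lungs, and Pcgf2 (0.72, adjusted p 0.0167) and Jarid2 (0.38, adjusted p 0.0411) were called higher against WT lungs. Aldh1a1 fell by 1.39 ± 0.26 against KO lungs (adjusted p 0.0103) and by 1.59 ± 0.31 against WT lungs (adjusted p 0.0231); with the block the first had an adjusted p of 0.0826. Tcf21 fell by 1.10 ± 0.27 against KO lungs (adjusted p 0.027; 0.0949 with the block), the only call among 13 tested mesenchymal factors, whose median was -0.64 beside the Hox median of -0.94. Of the calls in this paragraph against WT lungs, Jarid2 was lost under 7 of 13 alternatives, Pcgf2 under 3, and Meis3, Aldh1a1 and Hotairm1 under 4 each. Against KO lungs Pbx4 was lost under 9 of 17, Tcf21 under 8 and Aldh1a1 under 3.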

How the data were processed

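The authors deposited 2 tables over 23 libraries: expected counts and FPKM per gene, made with Trimmomatic 0.36, STAR 2.5.2b and RSEM 1.3.0 on mm10, per the submitters' processing notes. The strand setting is not given in the sources used here. Expected counts, as deposited, were rounded and tested with edgeR 4.0.16 (R 4.3.3; TMM, filterByExpr by group, robust quasi-likelihood F test, prior count 0.125), each comparison on its own groups. P-values were adjusted over all genes tested (Benjamini-Hochberg), with calls at 0.05; SE is the fold change over the square root of F. FPKM values, as the authors deposited them, give the levels. Alternatives used DESeq2 1.42.0, limma 3.58.1 on log2(FPKM + 0.1) and log2(FPKM + 1), other size factors, no filter, a replicate block, a fit over all libraries and 1 library left out. A fit of only the 3 animals with both tissues was added after seeing the data. The code was tested on simulated data. Hox genes and the other lists were chosen with earlier results of these data known. All Hox genes were accounted for; values per library were given for Hoxa5, Hoxb5, the leading member of each cluster and up to 8 called members in each direction, and up to 3 genes of each other list were named by adjusted p; members outside this rule were chosen after their values were seen. Tumours and lungs share animal codes, from the labels, although the titles number KO lungs 6 and 7 differently from these codes. The deviations of tumour and lung from their groups correlated at 0.377, 0.0971 and 0.0991 for animals 1, 3 and 6. Only tumour 1 correlated best with the lung of its own code. Tumour 3 correlated best with KO lung 2 and tumour 6 with KO lung 7, so the pairing rests on the labels. No 2 libraries of a group were copies: over 28 pairs chi-square per degree of freedom was 6.72 to 228. The limit of 3 counts for genes without a count covers counting error only, while SD and SE include the spread between libraries. Some genes counted in the totals are not reported here.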

Additional observations from a re-analysis of the deposited data

Results flagged for a closer look

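Among 30 quantities (25 Hox genes with more than 10 counts and 5 sums) examined in the group of 5 KO non-tumour lungs, 4 had one library far from the others, and it was KO lung 6 each time; about 1 in 20 such groups would be picked by chance. Hoxb7 was 4.88 FPKM in KO lung 6 and 1.64 to 2.42 FPKM in the other KO lungs. Hoxb8 was 0.65 FPKM there and 0.19 to 0.28 FPKM in the others. Its neighbour Hoxb9 was 0.31 FPKM there and 0 to 0.02 FPKM in the others. Hoxa9, the paralog of Hoxb9, was 0.09 FPKM there and 0 to 0.02 FPKM in the others. Both lie near 0: Hoxb9 had 21 counts over the 5 KO lungs and Hoxa9 10, with at most 18 and 6 in any library. For such values the rate of 1 in 20 need not hold. In tumour 6, of the same animal, Hoxb7 was 1.44 FPKM, Hoxb8 0.28 FPKM and Hoxb9 0 FPKM.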

How the results depend on the processing

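The counts of called Hox genes between genotypes, between 18 and 10 months and for the interaction were 0 under every alternative run. From E19.5 to 10 months the counts stayed within 1.5 times of 11 in KO lungs (8 to 12) and of 13 in WT lungs (9 to 15). The tumour counts moved. Against KO lungs, beside 1, they were 6 with DESeq2, 6 and 3 with limma on log2(FPKM + 0.1) and log2(FPKM + 1), 9 in the fit over all 23 libraries, 0 with the replicate block, 0 in the 3 animals with both tissues with or without the block, and 0 to 10 when 1 library was left out. Against WT lungs, beside 1, they were 4 with DESeq2, 0 without the filter, 4 with a replicate block, 7 over all 23 libraries and 0 to 10 when 1 library was left out. Calls over all genes moved as well. Against KO lungs the edgeR fit given above tested 17 members and called 1021 of 15459 genes lower. DESeq2 called 1754 lower and the limma fits 1447 and 1305. The fit over all 23 libraries tested 19 members and called 2625 of 16257 genes lower. Against WT lungs the edgeR fit tested 15 members and called 1151 of 15346 genes lower, DESeq2 2084 and the block 1379. The cause of the moved counts was not tested. Of 26 calls of a Hox gene, 13 held under every alternative, among them Hoxa3, Hoxa7, Hoxb2, Hoxb3, Hoxb8 and Hoxd4 in KO and Hoxa2, Hoxa3, Hoxa7, Hoxb2, Hoxb3 and Hoxb8 in WT lungs at 10 months against E19.5. No call changed direction. The calls of Hoxa5 and Hoxb4 in both genotypes and Hoxc5 in KO lungs were lost only over all 23 libraries (adjusted p 0.0795 to 0.177). Outside the tumour comparison with KO lungs, replicate numbers mark no shared animal, and same-numbered libraries correlated at -0.491 to 0.1253; a block on them also ended the calls of Hoxd8 in KO and Hoxb6, Hoxb7 and Hoxd9 in WT lungs, and no other Hox call between E19.5 and 10 months, and that of Hoxd8 in tumours against WT lungs. With the block the median of the members between KO non-tumour and WT lungs at 18 months was -0.12, beside 0.17, with 5 above 0 and 12 below. In none of these comparisons did every library correlate best with its own number. The median of all genes stayed within 0.1 on the log2 scale under every scaling. Groups of 3 and members under 1 FPKM limit the precision.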
